A study of Mus musculus with 38 samples.

Results

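In mouse embryonic stem cells 541 regions carried H3K4me3 and H3K9me3 at the same place, out of 21921 H3K4me3 regions in all (2.47%). They were found in the cells with intact IκBα and were followed into cells without it. The cells were of the line ES-E14TG2a, a feeder-independent mouse embryonic stem cell line, grown in serum with leukaemia inhibitory factor and taken at 0 h. IκBα-WT (WT) libraries came from IκBα+/+ clones that had received non-targeting guide RNAs. IκBα-KO (KO) libraries came from IκBα-/- clones, in which a pair of guide RNAs had cut the first exon of Nfkbia, the gene of the NF-κB inhibitor IκBα. Each genotype had 3 libraries per mark, which are independent clones grown from single sorted cells per the methods. A difference between the genotypes is therefore read against the spread between 3 clones. Histone marks were measured by ChIP-seq with 1 library per clone, and H3K27me3, H3K27ac and H3K4me1 were measured beside the 2 marks that define the regions. Of the 38 samples, 30 were ChIP libraries and 8 were inputs.

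The regions were defined from peak lists that the authors had called in each library. An H3K4me3 piece is a stretch of bases that at least 2 of the 3 WT lists call, and an H3K9me3 piece is the same for H3K9me3. A double-marked region is an H3K4me3 piece on chromosomes 1 to 19 that overlaps by 1 bp or more an H3K9me3 piece under 15 kb long. These regions lay on 418 of 42291 such H3K9me3 pieces, and 91 of the 418 held more than 1 region, so that 214 regions shared an H3K9me3 piece with another and are not independent of it. H3K4me3 and H3K9me3 in WT chose the regions. Their H3K4me3 and H3K9me3 values are therefore given as a description, without a test.

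H3K4me3 is laid down at CpG-rich promoters and marks genes that are active or ready to be transcribed. H3K9me3 is the mark of heterochromatin, and in embryonic stem cells SETDB1 brings it to retrotransposons, to zinc-finger gene clusters and to the methylated allele of imprinted control regions, through KRAB zinc-finger proteins and their scaffold TRIM28. The marks rarely share a nucleosome, and where both are found at an imprinted control region they lie on opposite parental alleles. The ZFP57 protein binds TGCCGC at imprinted control regions when its CpG is methylated, and recruits TRIM28 there. ChIP-seq lists such as these do not separate alleles, nor cells, so fewer cells with a mark and less of the mark in each cell cannot be told apart.

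Windows of 300 bases from 5 imprinted double-marked regions are shown because these loci are described one by one below. The sequences are the forward strand of GRCm38, and capitals mark TGCCGC or its reverse complement GCGGCA, which were searched on both strands. Each window was placed over as many matches as the region held within 300 bases. In the first 3 the H3K9me3 call was absent from every KO library, and in the last 2 it was kept.
Snrpn and Snurf, chr7:60004419-60004718: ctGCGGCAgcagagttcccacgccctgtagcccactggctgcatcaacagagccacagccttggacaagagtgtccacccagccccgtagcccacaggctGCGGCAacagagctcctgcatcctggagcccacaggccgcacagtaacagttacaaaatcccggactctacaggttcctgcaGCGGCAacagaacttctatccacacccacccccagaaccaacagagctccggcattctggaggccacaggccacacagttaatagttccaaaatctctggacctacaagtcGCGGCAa
Inpp5f, chr7:128687968-128688267: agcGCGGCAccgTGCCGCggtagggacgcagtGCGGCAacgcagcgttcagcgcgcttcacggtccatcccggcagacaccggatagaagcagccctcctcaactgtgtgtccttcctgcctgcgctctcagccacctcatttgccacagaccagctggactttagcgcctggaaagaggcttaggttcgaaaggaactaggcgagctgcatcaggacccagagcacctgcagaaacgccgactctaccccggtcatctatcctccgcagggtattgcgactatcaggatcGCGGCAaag
Kcnq1ot1, chr7:143295558-143295857: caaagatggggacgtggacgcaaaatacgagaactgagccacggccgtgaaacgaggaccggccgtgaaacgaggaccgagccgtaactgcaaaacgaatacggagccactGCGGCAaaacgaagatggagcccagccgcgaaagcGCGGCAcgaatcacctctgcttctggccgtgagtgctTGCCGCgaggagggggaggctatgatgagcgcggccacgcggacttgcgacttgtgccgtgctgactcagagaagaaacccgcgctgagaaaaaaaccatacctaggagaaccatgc
Ascl2, chr7:142968075-142968374: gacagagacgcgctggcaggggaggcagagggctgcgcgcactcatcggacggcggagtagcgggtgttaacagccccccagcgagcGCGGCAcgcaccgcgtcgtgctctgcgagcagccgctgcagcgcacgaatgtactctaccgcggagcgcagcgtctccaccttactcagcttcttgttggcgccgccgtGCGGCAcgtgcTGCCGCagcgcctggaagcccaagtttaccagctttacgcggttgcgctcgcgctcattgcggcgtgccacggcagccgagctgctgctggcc
Igf2r and Airn, chr17:12769329-12769628: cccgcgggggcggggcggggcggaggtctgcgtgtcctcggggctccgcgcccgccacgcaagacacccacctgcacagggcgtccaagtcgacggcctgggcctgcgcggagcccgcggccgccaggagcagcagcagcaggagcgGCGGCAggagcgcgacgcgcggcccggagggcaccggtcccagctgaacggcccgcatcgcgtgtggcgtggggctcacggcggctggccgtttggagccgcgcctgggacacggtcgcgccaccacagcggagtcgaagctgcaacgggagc
A match describes the letters only. Of 19 imprinted regions, with those on 1 chromosome not searched here, 8 held the letters somewhere in the region. In a window of 300 bases at the centre of each piece, TGCCGC or its complement occurred in 18.5% of the double-marked regions, in 21.0% of the other H3K4me3 pieces and in 3.41% of the H3K9me3 pieces. Regions that kept H3K9me3 (Ascl2, Igf2r, Fkbp6) and regions that lost it (Snrpn, Inpp5f, Kcnq1ot1) both held it, and the regions at H13, Nnat, Jade1 and Chrac1 did not.

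The lists held 21836 to 26806 calls per library for H3K4me3, which carry no read counts, and 35979 to 52748 for H3K9me3 with 8548342 to 12105343 reads in calls. H3K27me3 calls held between 8910890 and 10938375 reads, H3K27ac calls between 22943091 and 28339766, and H3K4me1 calls between 34736939 and 35951506. Promoters of the embryonic stem cell genes Pou5f1, Sox2, Zfp42, Tfcp2l1 and Utf1 had an H3K4me3 call in 3 of 3 WT libraries, while Nanog had it in 1 and Esrrb and Dppa5a in 0. The promoter of Nfkbia was called for H3K4me3 in 3 WT and 2 KO libraries, which does not check a short deletion. Per the labels, the same antibody served for H3K27ac and H3K4me1, whereas the study's methods name another one for H3K27ac.

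In sequence the double-marked regions were closer to the other H3K4me3 pieces than to the H3K9me3 pieces. Their median GC content was 56.1%, between 59.8% in the other H3K4me3 pieces and 42.7% in the H3K9me3 pieces. A 300-base window at their centre held a median of 14 CpG, against 18 and 2. Repeat-masked sequence made up a median of 6.50% of a region, close to the 5.57% of other H3K4me3 pieces and far below the 45.1% of H3K9me3 pieces. The 5′ end of a protein-coding gene lay within 1000 bp of 54.7% of the regions and of 65.5% of the other H3K4me3 pieces. Their H3K4me3 was no weaker in the peak lists. The median fold enrichment over input in WT was 7.81 in both sets. The H3K9me3 pieces under them were weaker than other H3K9me3 pieces, with a median log2 of ChIP over input of 1.16 against 1.53, and longer, with a median of 3600 bp against 3000 bp. The H3K9me3 WT calls over them also held more input reads, with a median of 23.5 against 20.0 reads per kb, and the part of input density in these calls was not tested.

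The regions had a median width of 732 bp and shared a median of 422 bp with H3K9me3, and 222 lay under it in full. The rule admits marginal cases. The smallest overlap was 2 bp, 34 regions overlapped by under 50 bp, and 16 H3K4me3 pieces that were not taken lay within 50 bp of an H3K9me3 piece, the nearest at 1 bp. The longest H3K9me3 piece that was admitted measured 14200 bp and the shortest one past the limit 15200 bp, and 56 further H3K4me3 pieces lay over such long H3K9me3 only. Regions made up between 1.73% of the H3K4me3 pieces on chromosome 4 and 3.59% on chromosome 17.

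By gene, 21 regions were imprinted, meaning within 10 kb of a gene on a list of imprinted genes, 10 belonged to zinc-finger genes, 467 to other genes and 43 to none. A region belonged to a gene when it touched its promoter, from 5000 bp upstream to 100 bp downstream of the 5′ end (318 regions), or otherwise its body (180 regions). By the nearest annotation, 360 regions touched an exon of their gene, 59 an intron only and 79 lay upstream. Genes of the germline list held 8 regions, the 2-cell-stage list held 0 although 37 of its genes are annotated, and no region fell on a histone or an olfactory receptor gene. Zinc-finger promoters were not richer in such regions than other promoters. Of 334 zinc-finger promoters with an H3K4me3 piece 7 held a double-marked region (2.10%), against 2.69% of the other protein-coding promoters.

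In KO, most regions kept H3K4me3, while H3K9me3 was called at far fewer of them than in WT. The 3 WT libraries called H3K9me3 at 476, 457 and 453 of the 541 regions, and the 3 KO libraries at 324, 291 and 311. For H3K4me3 the numbers were 508, 482 and 512 in WT and 468, 479 and 486 in KO. For H3K9me3 every WT number lay above every KO number, which follows in part from the choice of the regions on the WT lists, and for H3K4me3 the genotypes overlapped. The H3K9me3 lists also covered less sequence in KO, 172.5 to 185.7 Mb against 201.7 to 207.3 Mb in WT. At the 21380 other H3K4me3 pieces, most of which lack an H3K9me3 piece by the rule, it was called at 219, 215 and 192 in WT and at 310, 308 and 365 in KO. H3K4me3 was kept, that is called in at least 2 of 3 KO libraries, at 478 regions (88.4%, 95% Wilson interval 85.4 to 90.8), and 89.7% of all H3K4me3 pieces kept it. H3K9me3 was kept at 319 regions (59.0%, 54.8 to 63.0), whereas 77.4% of all H3K9me3 pieces under 15 kb were kept. A whole piece offers more bases to a KO call than the region inside it does. Counted by piece, 75.8% of the 418 pieces with a double-marked region were kept. Both marks were kept at 278 regions (51.4%), H3K4me3 alone at 200, H3K9me3 alone at 41 and neither at 22.

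**Figure D1:**
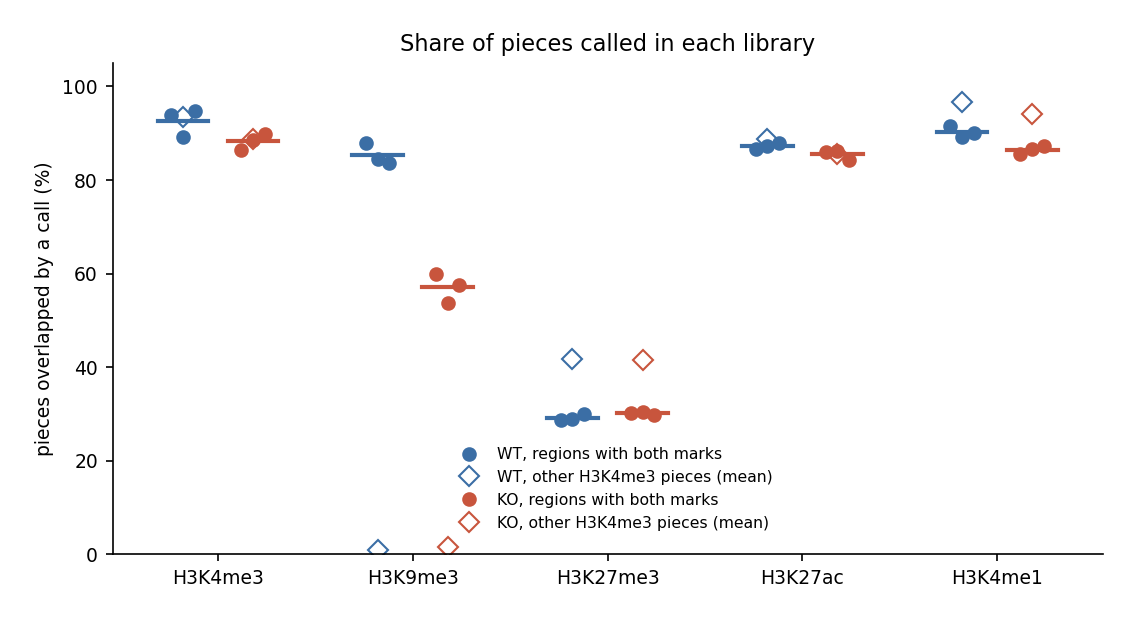
Share of regions, in percent, that a call overlaps in each library, for the 5 marks in WT (blue) and KO (red). Filled points are the 3 libraries at the 541 double-marked regions, bars their means, and open diamonds the mean over 3 libraries at the other H3K4me3 pieces. H3K9me3 falls from a mean of 85.4% to 57.1% of regions, and the other 4 marks differ by under 5 percentage points between the genotypes.

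To separate the choice of regions from their readout, regions were also chosen on 2 WT lists of H3K9me3 and read in the WT list left out. That list called H3K9me3 at 77.5% to 82.9% of them, and single KO lists at 56.5% to 66.5%. For H3K4me3 the list left out called 88.4% to 93.6% and single KO lists 91.1% to 94.1%. The WT and KO ranges were apart for H3K9me3 and overlapped for H3K4me3. Over all H3K9me3 pieces chosen on the same 2 lists, the list left out called 89.2% to 95.6% and single KO lists 74.3% to 90.6%. Part of the gap was thus found at H3K9me3 pieces in general, and it is not shown to be particular to the double-marked regions. Each mark was read while the other was held by the full rule, and 3 clones a genotype allow no test below 0.1.

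Of the 319 regions that kept H3K9me3, 257 had a lower mean log2 of ChIP over input in KO than in WT. Counted by piece, it was lower in KO at 251 of 317 kept pieces with a double-marked region (79.2%) and at 59.8% of the 32410 other kept pieces, with median differences of -0.28 and -0.09 on the log2 scale. The part of list coverage in these differences was not tested. For H3K4me3 the median fold enrichment was 10.0 in KO and 7.81 in WT, and it was 8.89 and 7.81 at the other H3K4me3 pieces. Fold enrichment in a peak list depends on the library and its input, and the H3K4me3 lists give no counts to rescale it. Every KO peak exceeded every WT peak at 142 of the 505 regions with a KO peak and fell short of every WT peak at 76, against a background over all such H3K4me3 pieces of 22.6% and 14.7%.

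How much H3K9me3 was kept followed the length of the H3K9me3 piece. Of pieces between 200 and 2000 bp, 50.0% of those with a double-marked region and 50.7% of the others were kept. From 2000 to 4000 bp the shares were 69.3% and 77.0%, and from 4000 to 8000 bp they were 89.6% and 95.9%. From 8000 to 15000 bp, 48 of 55 pieces with a region were kept (87.3%) against 99.1% of the others. Of the 7 lost pieces of that length, 6 were imprinted loci. Without the imprinted loci, 48 of 49 such pieces were kept (97.96%).

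**Figure D2:**
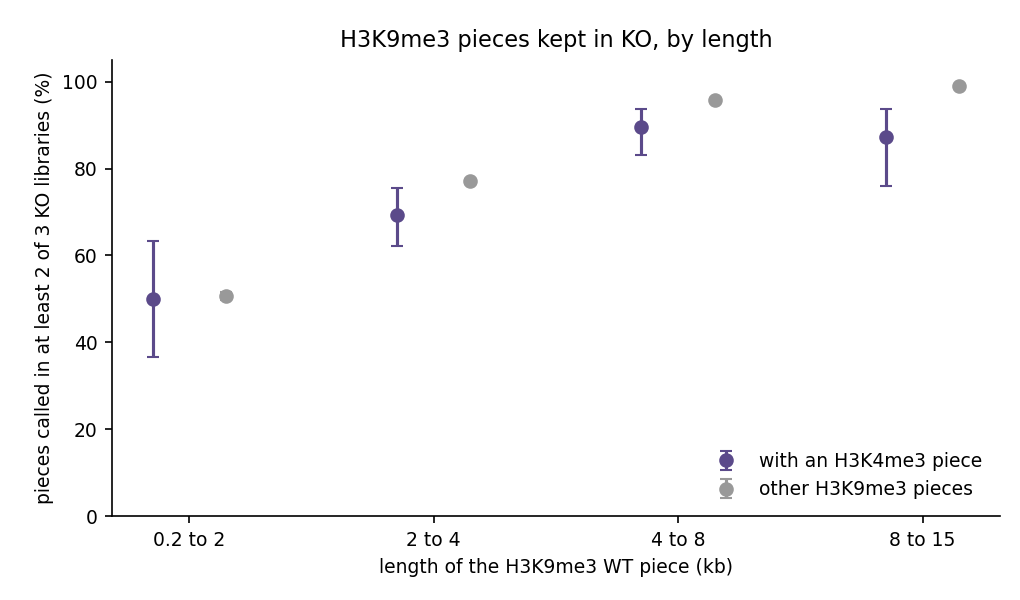
Share of H3K9me3 WT pieces called in at least 2 of 3 KO libraries, in percent, by the length of the piece in kb. Purple points are pieces with a double-marked region, grey points all other pieces under 15 kb, and bars are 95% Wilson intervals, hidden by the point where narrow. The share climbs from 50.0% to 89.6% with length in purple and is 87.3% in the longest class, where grey reaches 99.1%.

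Imprinted regions mostly kept H3K4me3 and lost H3K9me3. All 21 regions were called for H3K9me3 in each of the 3 WT libraries, and the KO libraries called 3, 7 and 4 of them. H3K4me3 was kept at 21 of 21 and H3K9me3 at 3 (14.3%, 95% Wilson interval 4.98 to 34.6), and at 13 no KO library called H3K9me3. Over all double-marked regions the pattern of 3 WT and 0 KO calls of H3K9me3 occurred at 42 (7.76%). Counted by piece, it occurred at 25 of the 418 pieces with a double-marked region (5.98%), against 3.63% of all H3K9me3 pieces. The 21 regions lay at 12 H3K9me3 pieces, and 19 of the 91 annotated genes on the list had 1 or more of the regions within 10 kb. These regions are neighbours within loci, so 12 is the number of separate observations. Of the 12 pieces 4 were kept (33.3%) and 7 were called in no KO library. The Wilson interval above counts the 21 regions as separate and is therefore too narrow. Of the 138 H3K9me3 pieces near listed genes that held no double-marked region, 85 were kept (61.6%). The input of the H3K9me3 experiment differed little there, with a log2 of KO over WT between -0.08 and 0.18 in the 1 Mb windows that hold the 21 regions.

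Long H3K9me3 domains were lost whole at 6 loci. Over Nnat, a maternally imprinted gene of neurons that lies in an intron of Blcap, WT calls covered 12600, 13600 and 13800 bp of chr2:157553201-157567000 and no KO library had a call. At H13, a signal peptide peptidase gene with the imprinted retrogene Mcts2 in an intron, all 3 WT libraries covered the full 11400 bp of chr2:152680001-152691400 and KO libraries covered 0 bp. At Peg10 and Sgce, neighbours on chr6:4741401-4752200 that are both expressed from the paternal allele, WT coverage was 10200, 9800 and 10800 bp and KO coverage 0 bp. All 3 losses were complete in each KO clone.

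At Inpp5f, which encodes an inositol phosphatase, 10600, 10600 and 9800 bp of chr7:128682601-128693200 were covered in WT and 0 bp in KO. At Snrpn and Snurf, whose shared start is the control region of the Prader-Willi locus, WT libraries covered 8200, 8400 and 9400 bp of chr7:60000001-60009400 and KO libraries 0 bp. At Kcnq1ot1, the long non-coding RNA that silences the Kcnq1 cluster in cis, WT libraries covered 8200, 8200 and 7600 bp of chr7:143291601-143299800 and KO libraries 0 bp. Impact, whose piece was shorter, had 2800, 2800 and 2600 bp in WT and 0 bp in KO.

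Other imprinted loci kept the mark. Igf2r, the receptor that clears IGF2, with Airn as its antisense RNA, had 3400, 3800 and 3800 bp covered in WT and 3000, 3200 and 3400 bp in KO on chr17:12768601-12772400. Ascl2, a placental transcription factor gene, had 3000, 2400 and 3800 bp in WT and 1800, 2400 and 2200 bp in KO on chr7:142964801-142968600. Near Fkbp6, at the promoter of its neighbour Trim50, coverage was 5600, 6400 and 6400 bp in WT and 6200, 4800 and 5400 bp in KO. At these 3 loci every clone had a call.

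The remaining pair were intermediate. Near Ago2, at the promoter of Chrac1, which encodes a histone-fold protein of chromatin remodelling complexes, KO libraries covered 3000, 2000 and 3000 bp of the piece (WT 2600, 3200 and 3600 bp), but 1 of the 3 KO calls reached the H3K4me3 region itself. At Jade1, which encodes a subunit of a histone acetyltransferase complex, WT libraries covered 3600, 3600 and 2800 bp and KO libraries 0, 3600 and 0 bp.

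**Figure D3:**
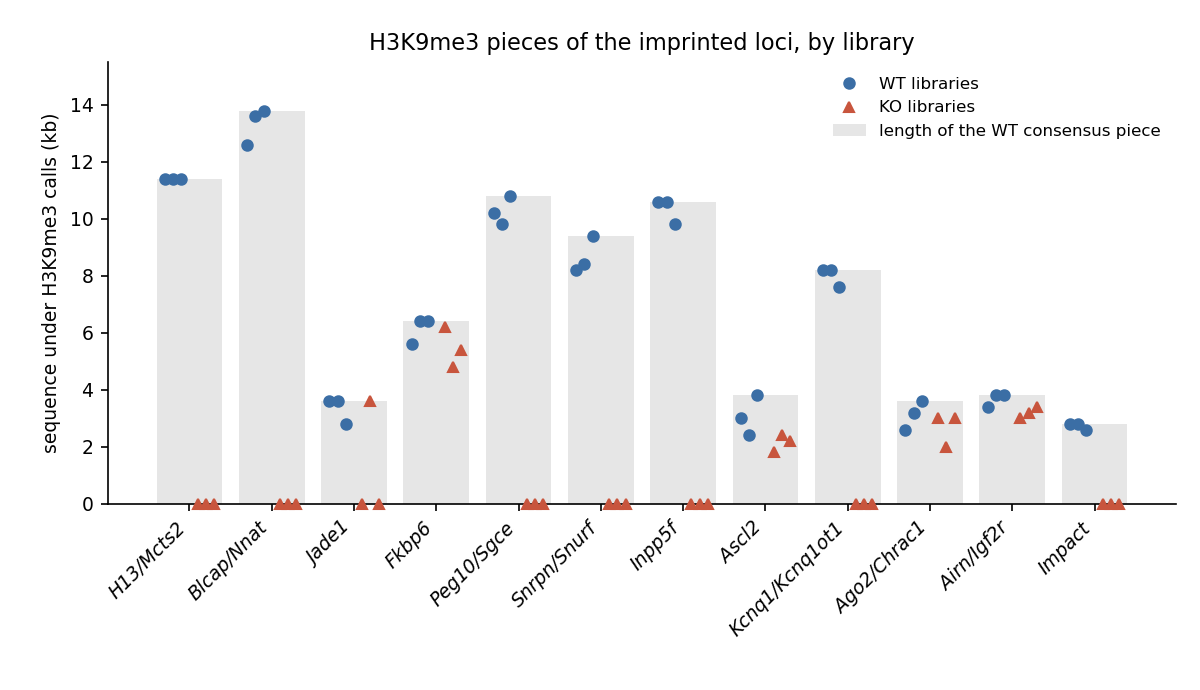
Sequence under H3K9me3 calls, in kb, in each WT (blue circles) and KO (red triangles) library at the 12 H3K9me3 pieces of imprinted loci, with the length of the WT piece as a grey bar. KO libraries are at 0 at 7 loci, 1 of 3 KO libraries is above 0 at Jade1, and all are above 0 at Fkbp6, Ascl2, Chrac1 and Igf2r.

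Both strong and weak H3K9me3 calls were lost at the imprinted loci. The WT log2 of ChIP over input was 3.03, 2.93 and 3.02 at Nnat, 2.33, 2.22 and 1.69 at Snrpn, and 1.90, 2.04 and 2.2 at Kcnq1ot1, where it was lost. It was 0.89, 0.90 and 0.85 at Impact, where it was lost as well. At Igf2r it was 1.28, 0.89 and 0.96 in WT and 0.74, 0.62 and 0.61 in KO, and at Ascl2 1.51, 1.10 and 1.10 in WT and 1.32, 0.54 and 0.96 in KO. At Igf2r every KO clone was below every WT clone by this ratio, in which clones of a genotype share 1 input, and at Ascl2 the genotypes overlapped.

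H3K4me3 moved in both directions at the imprinted regions. At the shared start of Snrpn and Snurf, its fold enrichment was 6.98, 8.14 and 9.10 in WT and 13.2, 16.0 and 16.4 in KO. At the promoter of Jade1 it was 12.3, 10.7 and 10.5 in WT and 18.9, 17.6 and 16.4 in KO. Within Impact it was 3.83, 3.38 and 3.50 at one of 2 regions in WT, and the single KO peaks that spanned both had 7.46, 10.8 and 14.3. In these 3 the KO libraries lay above all WT libraries.

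At the region in an exon of Blcap, beside Nnat, H3K4me3 fold enrichment was 11.04, 8.51 and 11.2 in WT and 7.71, 6.12 and 4.02 in KO. At the Chrac1 promoter it was 15.3, 10.1 and 17.2 in WT and 5.30, 7.55 and 7.63 in KO, and at the Trim50 promoter 7.82, 5.20 and 6.65 in WT and 3.48, 3.82 and 3.77 in KO. Here the KO libraries lay below all WT libraries. Over the 21 imprinted regions every KO peak exceeded every WT peak at 7 and fell short of every WT peak at 4. Neighbouring regions can share 1 KO peak, so the 7 are not separate. Over all H3K4me3 pieces with a KO peak the shares were 22.6% and 14.7%. Nothing particular to imprinted regions is read from these counts.

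Of the 10 zinc-finger regions 6 kept H3K9me3 and 9 kept H3K4me3. Zfp629, which had the longest overlap, carried strong H3K9me3 over chr7:127614522-127615254, in an exon. Its log2 of ChIP over input was 2.86, 3.03 and 3.14 in WT and 2.44, 1.99 and 2.18 in KO, and both marks were kept. Upstream of Zfp775 both marks were kept too, with H3K9me3 at 1.70, 1.55 and 1.62 in WT and 0.79, 1.04 and 0.67 in KO. H3K27ac was called there in 3 of 3 WT and 0 of 3 KO libraries. By this ratio H3K9me3 was weaker in each KO clone than in any WT clone at both genes. The 3 clones of a genotype share 1 input, so their ratios are not fully separate.

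Zfp809, a KRAB zinc-finger gene whose protein silences retroviruses through their primer binding site, kept H3K4me3 only. Its H3K9me3 was called in 2 WT libraries, at 1.17 and 1.25, and in 1 KO library, at 1.42. Zfp414 kept H3K4me3 only in the same way, with 1.80 and 2.02 in 2 WT libraries and 1.38 in 1 KO library. At both the calls in WT and KO differ by 1 library. Zfp229 lost H3K9me3 at a pair of regions in its intron on 1 piece, from 1.36, 0.87 and 1.23 in WT to no call in any KO library. Its H3K4me3 fold enrichment was 4.81 and 3.11 in the 2 WT libraries that called the longer region and 9.61, 7.80 and 9.37 in KO. Zfp30 kept both marks, with H3K9me3 at 1.41, 1.35 and 1.48 in WT and 0.62 and 0.66 in 2 KO libraries.

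The longest overlaps with no imprinted or zinc-finger gene were at the non-coding RNA Malat1 (4541 bp), at Trim28 (3774 bp), Rpl3, Ptma, Eif4a1, Rps19, the promoter window of Polr3a, where the region lies on Rps24, and at Tubb5 (2968 bp). At Malat1 the log2 of ChIP over input for H3K9me3 was 0.95, 0.49 and 0.50 in WT and 0.69, 0.81 and 0.50 in KO. At Trim28 it was 0.61, 0.67 and 0.37 in WT and 0.35 and 0.45 in the 2 KO libraries with a call. Rpl3 had 1.20, 1.30 and 0.92 in WT and 0.72, 0.61 and 0.61 in KO. Malat1 overlapped between the genotypes, whereas Rpl3 was lower in each KO clone by this ratio. Both marks were kept at 7 of these 8 regions. Rps19 lost H3K9me3, which was 0.66, 0.43 and 0.59 in WT and absent in KO, and its H3K4me3 fold enrichment was 10.6, 7.02 and 9.58 in WT and 20.0, 20.4 and 20.2 in KO.

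Ribosomal protein genes were singled out after these values were seen. They held 41 regions, and of 73 ribosomal protein promoters with an H3K4me3 piece 33 held one (45.2%), against 2.67% of all 11455 protein-coding promoters with an H3K4me3 piece. Many ribosomal protein genes have processed copies elsewhere in the genome, and the part of read placement in these calls was not tested. These regions were wide, with a median of 2273 bp, and poor in CpG at their centre, with a median of 5 in 300 bases. H3K9me3 over them was weak, with a median log2 of 0.66 in WT, and was kept at 25 of the 41, while H3K4me3 was kept at 40. H3K27ac was called at all 41 in every library of both genotypes and H3K27me3 at 0 in every library.

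The 8 germline regions kept H3K9me3 at more regions than H3K4me3, as did the single region of a protocadherin gene. They lay at Boll, Mael, Tdrkh, Sycp1, Dppa3, Dnmt3l, Ddx4 and Mei1, genes of meiosis, of the piRNA pathway or of the germ line's methylation. H3K4me3 was called at 7, 6 and 6 of them in WT and at 3, 1 and 4 in KO, and it was kept at 3 of 8 (37.5%, 95% Wilson interval 13.7 to 69.4). Over all 541 regions it was kept at 88.4%. The choice of regions on WT calls favours WT, and 3 of the 8 had an H3K4me3 call in 3 of 3 WT libraries. The median WT fold enrichment of the 8 was 5.89, against 7.81 over all 541. H3K9me3 was called at 8, 7 and 8 in WT and at 6, 5 and 6 in KO, and it was kept at 6 of 8. H3K27me3 was called at 6, 6 and 7 in WT and at 7, 7 and 7 in KO, and H3K27ac at 4, 4 and 5 in WT and at 3, 3 and 2 in KO. Mael, a piRNA pathway gene, had H3K4me3 at 5.32 and 7.11 fold in 2 WT libraries and no KO peak, with H3K9me3 at 1.85, 1.29 and 1.39 in WT and 0.81, 1.22 and 0.99 in KO. Sycp1, a component of the synaptonemal complex, had H3K4me3 at 5.73 and 8.41 fold in 2 WT libraries and no KO peak, while H3K9me3 was 1.05, 1.06 and 1.46 in WT and 1.68, 1.30 and 1.79 in KO.

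**Figure D4:**
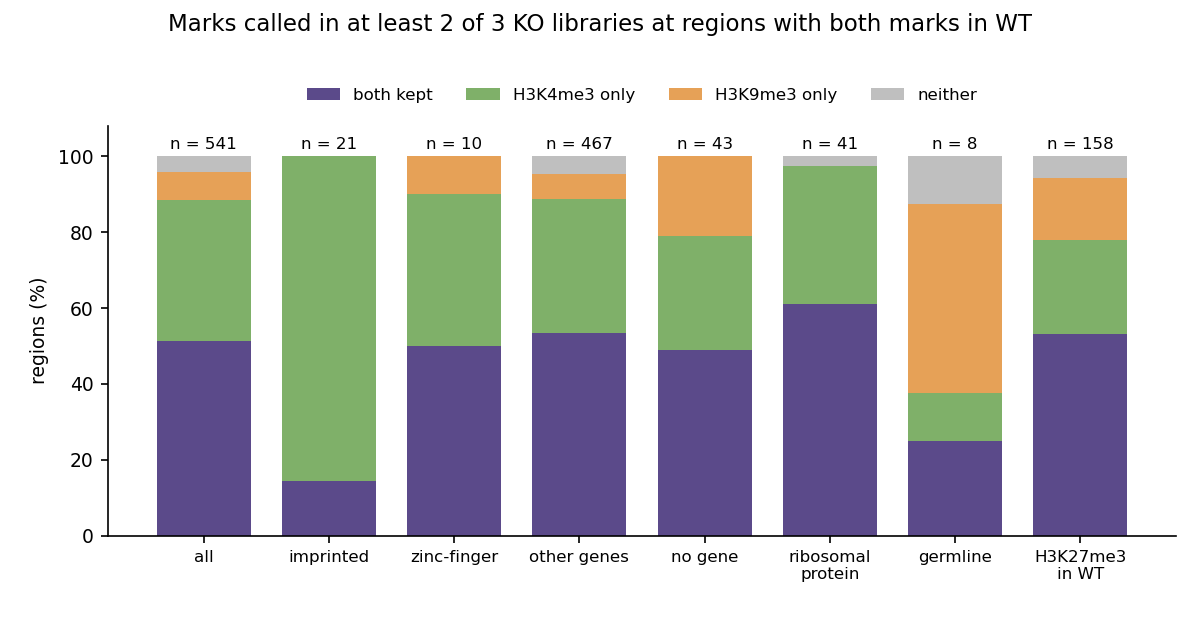
Share of double-marked regions, in percent, whose marks were called in at least 2 of 3 KO libraries, by gene group, with the number of regions above each bar. Purple is both marks, green H3K4me3 only, orange H3K9me3 only and grey neither. Green makes up 18 of the 21 imprinted regions, orange 4 of the 8 germline regions, and purple 278 of all 541. The groups overlap in the last 3 bars.

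Regions at which all WT and no KO library had a call were few. H3K9me3 was lost in this way at 42 regions, and among those with the longest overlaps were Rps19, 4931406C07Rik, the divergent neighbour of Taf1d, Rpl28 and Tpt1, the gene of a translationally controlled protein. At Rpl28 the log2 of ChIP over input was 1.11, 0.49 and 0.96 in WT, and at Tpt1 0.35, 0.48 and 0.57. H3K4me3 was lost at 8 regions (1.48%, against a background of 1.20% of all H3K4me3 pieces). The 5 with the longest overlap were AI854703, Hsp90aa1, Gm47067 near Tfap2a, Dnah8 and Gm20388 within Gse1. AI854703 had an H3K4me3 fold enrichment of 10.6, 5.73 and 8.15 in WT. Hsp90aa1, the inducible HSP90 chaperone, lay in a 1 Mb window in which the input log2 of KO over WT was -0.98, and Gm20388 in one where it was 0.47. These values are from the input of the H3K4me1 and H3K27ac experiment, not from that of H3K4me3.

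Input reads of the H3K4me1 and H3K27ac experiment, counted in H3K4me1 calls, differed between the genotypes at 44 of the 541 regions. A difference means over 0.25 on the log2 scale per kb in 1 Mb windows. Of the 44, 34 were on chromosome 8 (median 0.50, higher in KO). Windows with an input difference were set by this input for every mark, although the other marks have inputs of their own. H3K9me3 was kept at 19 of these 44 and H3K4me3 at 39.

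By calls that touch a region by 1 bp or more, the other 3 marks were called about as often in KO as in WT. H3K27me3 was called at 155, 156 and 162 regions in WT and 164, 165 and 161 in KO, with means of 157.67 ± 3.79 and 163.33 ± 2.08 (SD, n = 3 each). H3K27ac was called at 469, 472 and 476 regions in WT and 465, 466 and 456 in KO, with means of 472.33 ± 3.51 and 462.33 ± 5.51. H3K4me1 was called at 495, 483 and 487 regions in WT and 463, 469 and 472 in KO, with means of 488.33 ± 6.11 and 468.00 ± 4.58. The genotypes overlapped for H3K27me3 and not for the other 2. Two-sided exact permutation tests over the 20 assignments of 3 of 6 libraries gave p = 0.2, 0.1 and 0.1 in this order, and 0.2, 0.15 and 0.15 after Benjamini-Hochberg adjustment over the 3 marks, where 0.1 is the smallest p the design allows. At the other H3K4me3 pieces the mean share also fell, which was 88.7% in WT and 85.6% in KO for H3K27ac, and 96.6% and 94.1% for H3K4me1. At the double-marked regions these means were 87.3% and 85.5%, and 90.3% and 86.5%. H3K27me3 was less common at the double-marked regions, at a mean of 29.1% in WT and 30.2% in KO against 41.7% and 41.5%.

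A state with H3K27ac and H3K4me1 but without H3K27me3 was the most common one, at 332 regions in WT and 306 in KO. All 3 other marks were found at 101 regions in WT and 99 in KO, and none at 6 in each. The 158 regions with H3K27me3 in WT kept H3K9me3 at 69.6% and H3K4me3 at 77.8%, and the 383 without it kept H3K9me3 at 54.6% and H3K4me3 at 92.7%. The 95% Wilson intervals of the shares of H3K9me3 were 62.0 to 76.3 and 49.6 to 59.5. They count regions that share an H3K9me3 piece as separate and are no test of a difference. The same split over all H3K4me3 or H3K9me3 pieces is not given, so nothing particular to double-marked regions is read from it. Regions with H3K27me3 were richer in CpG, with a median of 27 against 9 in 300 bases, so the 2 sets differ in more than the mark.

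Few regions changed fully from one genotype to the other. For H3K27me3 0 regions went from 3 WT calls to 0 KO calls and 1 went the other way, Ttll9, a tubulin ligase-like gene (log2 of ChIP over input 0.81, 0.96 and 0.70 in KO). For H3K27ac 6 were lost and 2 gained. The lost ones with the longest overlaps were at Ap1s3, Zfp775, Stpg2 and Vamp9, and both gained ones were at the start of Rgcc, a cell cycle regulator, at 0.77, 0.48 and 0.42 in KO. For H3K4me1 6 were lost and 0 gained, the longest at Rps15, Hsp90aa1, Ppan and Ash2l. The background over all H3K4me3 pieces was 0.515% lost and 0.401% gained for H3K27me3, 1.28% and 0.155% for H3K27ac, and 0.538% and 0.0456% for H3K4me1. Against 541 regions the counts are of the same order, and nothing particular to the double-marked regions can be read from them.

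Read counts gave a finer measure. Calls that overlapped in the 6 libraries of a mark were merged into regions, and ChIP reads in those called in all 6 were compared with edgeR, with the covered length as an offset. A log2 difference below is KO over WT in reads per covered length, and p-values measure only the spread between these clones. For H3K27me3, 138 tested regions held double-marked regions, and 5 rose and 4 fell at an adjusted p under 0.05 (background over all tested regions 2.73%). For H3K27ac 71 of 326 rose and 17 fell (background 12.8%, with 8.19% higher and 4.56% lower). For H3K4me1 34 of 391 rose and 17 fell (background 5.64%, 4% higher and 1.64% lower). The shares called, 6.52%, 27% and 13%, were above the background, and these regions were also longer, with a median of 10.4, 25.1 and 13.6 kb against 7.23, 7.97 and 5.23 kb over all tested regions. Their median log2 differences were 0.02, 0.02 and 0.01. The part of length in these shares was not tested. The direction differed under another setting: with regions of even covered length and no offset, 53 rose and 61 fell of 174 for H3K27ac, and 53 rose and 51 fell of 229 for H3K4me1. That setting changed both the regions and the offset, and the part of each was not tested.

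Of the 71 rises of H3K27ac 18 lay where the input rose too, and of the 34 rises of H3K4me1 21 did. On chromosome 8, in windows with an input difference, 18 of 24 H3K27ac regions and 21 of 29 H3K4me1 regions rose, with median log2 differences of 0.44 and 0.40. Outside all such windows 53 rose and 15 fell of 298 for H3K27ac (background over all tested regions outside them 11.2%, with 6.77% higher and 4.45% lower). For H3K4me1 13 rose and 15 fell of 356 (background 3.87%, with 2.54% and 1.33%), and for H3K27me3 3 rose and 4 fell of 127 (background 1.53%, with 0.711% and 0.818%). The shares called outside these windows were 22.8% for H3K27ac, 7.9% for H3K4me1 and 5.5% for H3K27me3. The part of region length in these shares was not tested.

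**Figure D5:**
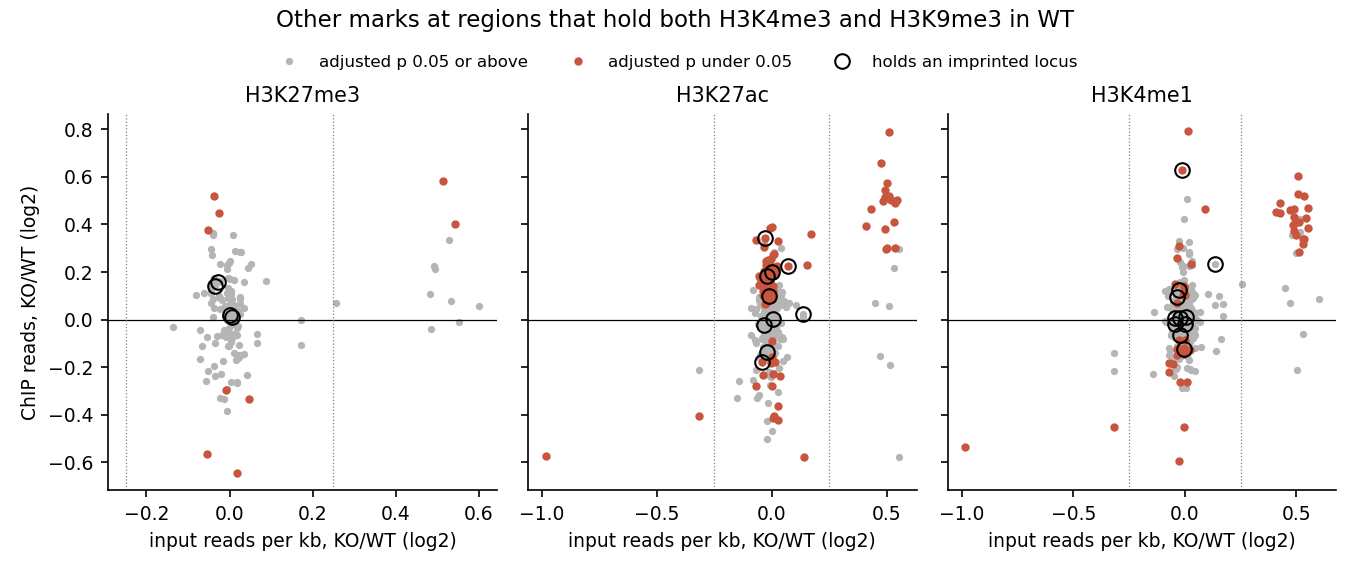
Log2 of KO over WT in ChIP reads (edgeR, covered length as offset) against the log2 of KO over WT in input reads per kb of the 1 Mb window, for each tested region of H3K27me3, H3K27ac and H3K4me1 that holds a double-marked region. The input is that of the H3K4me1 and H3K27ac experiment in every panel. Red points have an adjusted p under 0.05, circles hold an imprinted locus, and dotted lines mark an input difference of 0.25. A cloud of red points at an input difference near 0.5 in the H3K27ac and H3K4me1 panels is chromosome 8, and the circle at 0.63 in the H3K4me1 panel is Nnat.

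At the imprinted loci some of these marks moved as well. H3K4me1 at Blcap and Nnat was 1.45, 1.53 and 1.53 normalised reads per kb (per 1000000 TMM-scaled reads) in WT and 2.26, 2.34 and 2.4 in KO. All KO clones were higher, with a log2 difference of 0.63 ± 0.05 (SE) and an edgeR adjusted p of 8.27e-07, and the input differed by -0.01. It was the single H3K4me1 region that rose among 11 tested at imprinted loci (4% over all tested regions). H3K27ac rose at 3 of 10 and fell at 1 (8.19% and 4.56% over all tested regions). Of the 326 tested H3K27ac regions that hold double-marked regions, 71 rose and 17 fell. Nothing particular to imprinted loci is read from these counts. At Kcnq1ot1 H3K27ac was 2.15, 2.32 and 2.38 in WT and 3.04, 2.87 and 2.78 in KO (log2 difference 0.34 ± 0.07, edgeR adjusted p = 0.00438). Its calls there covered 9.0 to 11.8 kb in WT and 14.6 to 18.4 kb in KO.

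H3K27ac also rose at H13, from 3.47, 3.61 and 3.56 to 4.10, 4.07 and 3.91 (0.18 ± 0.03, edgeR adjusted p = 0.000709), and at Impact, from 2.26, 2.16 and 2.29 to 2.75, 2.52 and 2.57 (0.23 ± 0.06, edgeR adjusted p = 0.0190). Jade1 fell, from 4.02, 4.14 and 4.12 to 3.62, 3.69 and 3.54 (-0.18 ± 0.03, edgeR adjusted p = 0.000525). The KO clones did not overlap the WT clones at any of the 4 genes. At H13 and Jade1 the H3K27ac calls covered 71.2 to 76.2 kb and 66.2 to 72.6 kb per library, so its change is not that of the double-marked region alone. H3K27me3 was tested at 4 imprinted loci, Fkbp6, Peg10, Ascl2 and Igf2r, with edgeR adjusted p from 0.312 to 0.979. By list, H3K27me3 was called at Inpp5f in 0 WT and 2 KO libraries.

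Beyond imprinted loci, the largest falls of H3K27me3 were at Mesd, an endoplasmic reticulum chaperone gene, and at Celrr, Vstm2a and Pmaip1. Calls at Celrr covered 3.2 to 5.2 kb in WT and 5.8 to 9.4 kb in KO, and at Pmaip1 20.2 to 28.4 kb and 15.4 to 17.2 kb. At Mesd normalised reads per kb were 6.72, 9.24 and 10.0 in WT and 4.57, 5.77 and 6.30 in KO, a log2 difference of -0.65 ± 0.15 (edgeR adjusted p = 0.0355). The 4 falls depended on the libraries used, since 0 were called without WT 2, without KO 1 or without KO 2, 1 without WT 3 and 2 without KO 3, and 2 were called with a replicate block. The 5 rises became 3 without WT 2, WT 3 or KO 2, and 2 without KO 3. The largest rises were at Tsnax and Tenm3 on chromosome 8 and at Hcn2 and Phldb3. The input of the H3K4me1 and H3K27ac experiment was higher by 0.51 and 0.54 at Tsnax and Tenm3. At Hcn2 and Phldb3 it was not. Hcn2, a pacemaker channel gene, rose from 4.49, 4.27 and 4.49 to 6.28, 6.84 and 5.85 (0.52 ± 0.09, edgeR adjusted p = 0.00457).

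For H3K27ac the rises at Klf2, Gm20388 and Ankrd11, among the largest, were on chromosome 8 with an input difference of 0.47 to 0.51. Klf2, a pluripotency factor gene, went from 4.18, 4.38 and 4.32 to 7.42, 7.45 and 7.39, a log2 difference of 0.79 ± 0.02 (edgeR adjusted p = 1.46e-09). The largest falls were at a region with no gene on chromosome 10 (-0.58 ± 0.09), at Hsp90aa1 (-0.57 ± 0.05), where the input fell by 0.98, and at Mier3 and BC031181. For H3K4me1 the largest rise was at Nkiras1, which encodes an inhibitor of NF-κB that binds IκB proteins. It went from 1.27, 1.24 and 1.21 to 2.03, 2.58 and 1.91 normalised reads per kb (0.79 ± 0.13, edgeR adjusted p = 0.00210), with no input difference and with calls of unequal length, from 3.0 to 6.0 kb in WT and from 1.6 to 2.6 kb in KO. Klf2 and Cherp, on chromosome 8, rose by 0.60 and 0.53 beside the 0.63 at Nnat. The largest falls were at Nop56 (-0.59 ± 0.16), Hsp90aa1 (-0.53 ± 0.07), 5430416N02Rik and Hmgb1, of which Hsp90aa1 and Hmgb1 had input differences of -0.98 and -0.32. Calls were of unequal length here too. At Nop56 they covered 1.2 to 2.8 kb in WT and 2.0 to 6.0 kb in KO. At Hsp90aa1 they covered 27.8 to 31.4 kb in WT and 6.4 to 7.8 kb in KO.

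The same rule applied to the KO lists gave 667 of 24300 H3K4me3 pieces (2.74%). Of the 541 WT regions 277 (51.2%) overlapped one of these, and of the 667 KO regions 246 (36.9%) overlapped a WT region, since several pieces of one genotype can lie under 1 piece of the other. Of the 667, 424 had H3K4me3 and 419 had H3K9me3 in at least 2 WT libraries. With 1 list of each mark in place of the consensus, the 9 WT combinations gave 591 to 707 regions and the 9 KO combinations 688 to 989, and the ranges overlapped.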

How the data were processed

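ChIP-seq of 5 histone marks was taken as the authors had deposited it, as lists of calls per library on GRCm38. For H3K4me3 the authors deposited MACS2 2.2.7.1 peak lists with a score, a fold enrichment (a ratio over input), a −log10 p-value and a −log10 q-value. For the other 4 marks the authors deposited epic2 0.0.52 tables in steps of 200 bp with counts of ChIP and input reads, a p-value, an FDR, a log2 of ChIP over input and a score. Per the submitters' processing notes and the study's methods, reads were trimmed with Trim Galore 0.6.6, aligned with Bowtie2 2.4.4 (the aligner of H3K27ac and H3K9me3 is not given in the sources used here), freed of multimapped and low-quality reads and of blacklisted sequence, and called per library at an FDR under 0.05. Such filters remove reads from repeats, where much H3K9me3 lies. 1 input per genotype and experiment served all 3 clones, so ratios over input of these clones share a denominator and an input difference moves them together.

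Groups come from the labels. Genes are GENCODE M21, and gene lists are hand-written. The regions, the lists and the tests were chosen with earlier results of these data known. The genes named are all imprinted and germline-list genes with a region, the 6 zinc-finger and 8 other genes with the longest overlap of both marks, the 5 longest overlaps with 3 WT and 0 KO calls per defining mark, and for each other mark up to 4 regions per direction, except items that are not reported here. A call at a region needs 1 bp. Strengths are those of the call with the largest overlap (H3K4me3: the highest fold), and a KO peak can span several regions. Wilson intervals (95%) cover counting error only, and those over regions count neighbours on 1 H3K9me3 piece as separate.

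Reads per merged region called in all 6 libraries were tested with edgeR 4.0.16 in R 4.3.3 (TMM, quasi-likelihood, covered length as offset, Benjamini-Hochberg), over 18809 regions for H3K27me3, 24039 for H3K27ac and 44625 for H3K4me1. A region lost from 1 library is thereby not tested, and a lost call is not a count of 0. On simulated counts for the same regions, 200 of 200 changes of 2-fold were recovered for each mark, with 12 to 15 unchanged regions called. The counts were simulated with a fixed dispersion and in proportion to covered length. They therefore check neither the offset nor changes smaller than 2-fold. For H3K27me3, H3K27ac and H3K4me1, no pair of libraries of the same genotype was closer than sampling noise. Pairs across genotypes and pairs of H3K4me3 or H3K9me3 libraries were not checked. DESeq2 1.42.0 was an alternative. Python 3.11.15 (pandas 2.3.3, SciPy 1.17.1) served for intervals and tests.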

Additional observations from a re-analysis of the deposited data

How the results depend on the processing

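Requiring 3 of 3 WT lists left 235 regions, and leaving out 1 WT library gave 324 to 365, in place of 541. The share of regions that kept H3K9me3, H3K4me3 and both was 59.0%, 88.4% and 51.4%. It was 66.8%, 95.7% and 63.8% with regions from 3 of 3 WT lists, 34.2%, 83.2% and 26.4% when 3 of 3 KO libraries had to call, 78.0%, 93.4% and 73.0% when 1 was enough, 46.8%, 84.7% and 37.5% when 0.5 of the region had to be covered, and 62.9%, 92.6% and 55.7% as the mean over single KO lists for regions chosen on 2 WT lists. At an FDR under 0.01, H3K9me3 was kept at 52.6% and both at 45.4%. Without 1 library, WT or KO, the ranges were 40.1% to 65.4%, 84.3% to 93.5% and 32.7% to 61.1%, since both of the 2 lists left had to call. Both marks were kept at 32.7% without KO 1 and at 34.0% without KO 3. H3K4me3 stayed the more often kept mark under each of these settings. The shares without imprinted regions and without windows of unequal input, both settings added after the data were seen, moved by less than the spread between libraries.

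Among edgeR calls, limiting the test to regions of even covered length with no offset gave 14 of 40 for H3K27me3 and 104 of 229 for H3K4me1, and for H3K27ac 114 of 174, of which 53 rose and 61 fell in place of 71 and 17. Under that setting 35.1%, 43.4% and 52.9% of all regions were called for H3K27me3, H3K4me1 and H3K27ac. Outside windows of unequal input H3K4me1 had 28 calls in place of 51. Leaving out 1 library gave 3 to 9 calls for H3K27me3 (3 or 4 without any library but WT 1), 74 to 85 for H3K27ac and 38 to 42 for H3K4me1. DESeq2 gave 9, 92 and 63. The cause was not tested.

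Libraries with the same replicate number did not deviate together, with correlations from -0.02 to 0.03 across regions, so the numbers are not taken as pairs. With a replicate block the edgeR calls were 7, 88 and 46 for H3K27me3, H3K27ac and H3K4me1, and the exact sign-flip tests of the calls per library gave p = 0.5, 0.25 and 0.25. Depth limits H3K4me3, which has no counts, and the weakest H3K9me3 calls, which pass or miss the FDR threshold on few reads.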
